A study of Homo sapiens with 16 samples.

Results

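Messenger RNA levels of 31 target genes of the transcription factor p53 were followed in the human line NCI-H1688, epithelial cells of a small cell lung cancer, after 24 h with plant alkaloids, epigenetic drugs or their combinations. The members were taken by name from a list chosen with earlier results of these data known. All 31 were found among the 44591 gene rows of both deposited tables. RNA was sequenced in 16 libraries, 2 per group, which the labels describe as biological duplicates.

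The first table held evodiamine at 3 µM, sanguinarine chloride at 1 µM, cepharanthine at 3 µM and the control. The second table held sanguinarine at 1 µM with the BET bromodomain inhibitor JQ1 at 28 µM, JQ1 at 28 µM alone, sanguinarine at 1 µM with panobinostat, a histone deacetylase inhibitor, at 60 nM, and panobinostat at 60 nM alone. The control cells are labelled untreated, while the series design speaks of DMSO. No control was present in the second table, so JQ1 and panobinostat alone were compared with each other and no change from untreated cells is given for them. Library titles that begin with S- carry the treatment label of a drug alone and those without it carry the label of a combination, so titles and labels could be read in opposite ways. Groups here follow the treatment labels. Were the labels the wrong way round, each difference between a combination and its partner drug would change sign. The comparison of JQ1 with panobinostat would then be that of the combinations. The interactions would take other values, which are given below as counts and for part of the members.

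The p53 protein is a sequence-specific activator that is held low by its ligase MDM2 and is stabilised when DNA damage, nucleolar stress or other stress frees it. Its targets stop the cell cycle, repair DNA, tune metabolism, promote or restrain apoptosis and feed back on p53 itself. Several of these targets, among them GDF15, CDKN1A and TNFRSF10B, are also induced without p53, for example by the integrated stress response.

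The element to which p53 binds is a pair of half-sites of 10 bases each with a short spacer. RefSeq promoter windows (GRCh38.p14, 250 bases before to 50 after a start site) were present for 23 of the 31 members, and 5 of them held a pair of p53 half-sites with a spacer of at most 13 bases, at most 2 mismatches in all, and the C and G of each core intact. Over all genes with a window, 3.62% of 27305 held such a pair in at least 1 window. The half-site letters are the standard p53 consensus, which reads the same on both strands, so both strands were searched at once. The matches are printed because they are the elements found in promoters of genes whose values are given below. Capitals mark the half-sites, and positions are counted from that window's start site.
MDM2: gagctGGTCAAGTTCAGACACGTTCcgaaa
AEN: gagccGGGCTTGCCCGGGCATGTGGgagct
FAS: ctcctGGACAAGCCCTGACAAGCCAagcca
DDB2: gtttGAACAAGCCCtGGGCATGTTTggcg
FDXR: GGGCGGGCCCgggcaggagcGGGCTTGCCC
The MDM2 stretch lies at chr12:68808918-68808947 on the plus strand with its site from −94 to −75, and the AEN stretch at chr15:88621301-88621330 on the plus strand with its site from −34 to −15. The FAS stretch lies at chr10:88991304-88991333 on the plus strand with its site from −122 to −103. The DDB2 stretch lies at chr11:47214975-47215003 on the plus strand with its site from 6 to 26, and it alone among the 5 had 0 mismatches. The FDXR stretch lies at chr17:74872996-74873025 on the minus strand with its site from −31 to −2 and a spacer of 10 bases. A match describes letters and does not show binding, and windows without one say only that the letters were not there.

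Levels are the authors' deposited RPKM, that is, counts divided by gene model length and by library total. Changes are log2 differences, given with an approximate standard error (±), from an edgeR quasi-likelihood model of the counts of all 16 libraries with TMM scaling. A gene is called higher or lower at a Benjamini-Hochberg adjusted p under 0.05 over the 22263 genes tested, and all 31 members passed the filter on low counts. RPKM is scaled to library totals and the changes are not. The median change of all genes was 0.01 with TMM and 0.15 by library totals for sanguinarine against control, −0.03 with TMM and −0.19 by totals for JQ1 against panobinostat, and 0.06 with TMM and 0.17 by totals for sanguinarine with panobinostat against panobinostat. Small RPKM differences can therefore depart from the log2 change, and a change is relative to the median of all genes.

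Libraries held 39996881 to 64060919 counted reads. Duplicates differed by a median of 0.03 to 0.13 on the log2 RPKM scale among the members in 7 groups, and by 0.32 in sanguinarine with panobinostat, where SPATA18 differed by 0.88. Of 10 small cell lung cancer and epithelial markers, EPCAM, KRT8 and KRT18 were high (53 to 2300 RPKM), while NEUROD1 was listed at 0 in every library and INSM1 did not exceed 0.0427 RPKM, so these neuroendocrine factors were at or near 0. CHGA, DLL3 and POU2F3 did not exceed 1.87 RPKM, while SYP was at 2.21 to 14.5 RPKM in the second table and 0.104 to 0.286 in the first, and NCAM1 reached 11.4 in the second table and 0.028 in the first. Fibroblast markers (6 genes) summed to 14.1 to 19.2 RPKM in sanguinarine with panobinostat, 10.3 to 11.8 in panobinostat, 6.15 to 7.40 in the JQ1 groups and 2.75 to 4.52 in the first table, nearly all of it COL1A1. Blood cell markers (6 genes) summed to 23.9 to 31.2 RPKM in sanguinarine with panobinostat and 16.6 to 17.2 in panobinostat, to 18.4 to 20.6 in sanguinarine with JQ1 and 5.70 to 6.26 in JQ1, and to 7.95 to 10.8 in the first table, with PTPRC at or under 0.0293 throughout. The part of these markers in the results was not tested. Reads were not stated to be counted by strand, and 8 of the 31 members share exon bases with another protein-coding gene in GENCODE 44, at most 8.91% of their own. RPS27L also has a close paralog, RPS27, and no source used here says how shared reads were assigned.

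Evodiamine gave the broadest rise of p53 targets among the alkaloids. Of the 31 members, 23 were higher than in control, 0 were lower and 8 did not pass, against 5.3% of all genes tested called higher and 6.13% called lower. The median log2 change of the members was 0.60, against 0.00 for all genes. In bulk RNA, fewer cells with a transcript and less transcript per cell cannot be told apart, here or below. Protein levels were not analysed here. The rise took in every role, from the ligase MDM2 (1.19 ± 0.10) and the cell cycle inhibitor CDKN1A (1.11 ± 0.10) to the stress protein TP53INP1 (1.89 ± 0.13) and the secreted factor GDF15 (1.72 ± 0.16). By the edgeR model 0 members were lower even at an unadjusted p under 0.05, and 0 were called lower by the DESeq2 Wald test, while a fit of the first table alone called 27 higher and 1 lower (PLK2, −0.14, adjusted p = 0.0406). That fit called 29.7% of all genes, against 11.4% in the fit of all 16 libraries.

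With sanguinarine, 14 members were higher than in control, 1 was lower and 16 did not pass, against 11.7% of all genes called higher and 10.3% called lower. The median of the members was 0.36, and that of all genes 0.01. GDF15 (2.38 ± 0.17), TP53INP1 (1.87 ± 0.13) and CDKN1A (1.19 ± 0.10) led, and the kinase gene PLK2 was the member that fell. The count depended on scaling. By library totals alone 19 members were higher and 1 lower, with 22.6% of all genes called against 22%. Evodiamine then had 24 higher, with 11.1% of all genes called. A fit of the first table alone called 20 higher and 2 lower with sanguinarine, and 41.9% of all genes. Cepharanthine moved few members. It raised 3 (GDF15, TP53INP1 and CDKN1A), lowered 3 (PLK2, BTG2 and POLH) and left 25 not passing, against 3.56% of all genes called, 2.6% higher and 0.961% lower, with medians of −0.10 for the members and 0.00 for all genes. When any 1 of the 4 libraries compared was left out, CDKN1A, BTG2 and POLH no longer passed, and a smaller share of all genes was called.

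**Figure D1:**
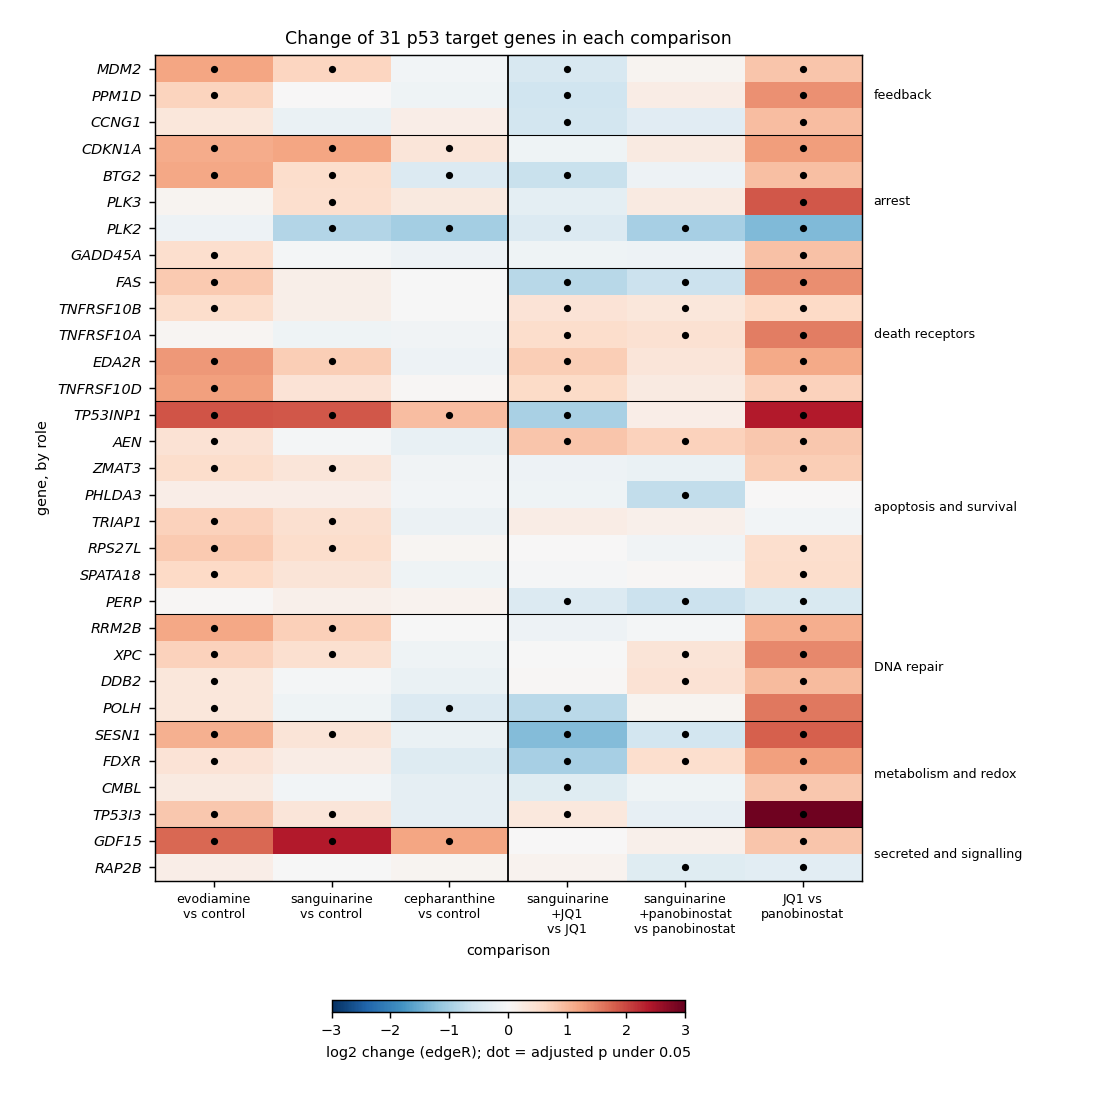
Log2 change of each of the 31 p53 target genes (vertical axis, grouped by role) in 6 comparisons (horizontal axis); red is higher and blue lower in the group named first, and a dot marks an adjusted p under 0.05 in the edgeR model. The evodiamine column holds 23 dots, all red, the sanguinarine column 15 with PLK2 the blue one, and the cepharanthine column 6, while in the column of sanguinarine with JQ1 against JQ1 12 of 18 dots are blue.

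Direct comparison of the alkaloids placed most members highest with evodiamine. Members were higher with sanguinarine than with evodiamine in 2 cases (GDF15 and PLK3), lower in 17 and not passing in 12, against 11.3% and 9.19% of all genes (median −0.37, against 0.00), and the doses of these alkaloids differ (1 µM against 3 µM). The count of 19 members called fell whichever library was left out, as did the share of all genes called. At the matched dose of 3 µM, cepharanthine was below evodiamine in 26 members and above it in 0, with 5 not passing, against 5.79% of all genes lower and 8.28% higher, and the median difference was −0.74, against 0.00 for all genes. Sanguinarine was above cepharanthine in 15 members and below in 0 (7.52% and 7.16% of all genes; median 0.40, against 0.00), with doses of 1 µM against 3 µM. At an unadjusted p under 0.05 in edgeR, 0 members were higher with cepharanthine than with evodiamine and 1 was lower with sanguinarine than with cepharanthine, and the DESeq2 Wald test called 0 in both cases. A fit of the first table alone called 1 member higher with cepharanthine than with evodiamine (PLK3, 0.22, adjusted p = 0.0443). CCNG1 was called lower with sanguinarine than with cepharanthine in that fit (−0.38), without the filter on low counts (−0.39) and without both libraries of sanguinarine with panobinostat (−0.40).

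Of the 3 genes that feed back on p53, 2 rose with evodiamine (MDM2 and PPM1D) and 1 with sanguinarine (MDM2). MDM2, the ligase that degrades p53, stood at 45.3 and 45.5 RPKM with evodiamine, 32.1 and 34.0 with sanguinarine, 16.7 and 20.1 with cepharanthine, against 18.7 and 19.6 in control. Both evodiamine libraries lay above both sanguinarine libraries, which lay above all others, and the cepharanthine and control libraries overlapped. MDM2 rose with evodiamine (1.19 ± 0.10, adjusted p = 1.83e-07) and with sanguinarine (0.65 ± 0.10, adjusted p = 0.000124), and sanguinarine was below evodiamine by −0.54 ± 0.10 (adjusted p = 0.000854). PPM1D, a phosphatase that turns off p53 signalling, held 5.92 and 5.93 RPKM with evodiamine, 3.90 and 4.10 with sanguinarine, 3.25 and 3.51 with cepharanthine, against 3.52 and 3.69 in control. PPM1D rose with evodiamine (0.66 ± 0.11, adjusted p = 0.000445), and sanguinarine was below evodiamine by −0.65 ± 0.11 (adjusted p = 0.000315). CCNG1, which codes for cyclin G1, had 38.5 and 39.3 RPKM with evodiamine, 28.6 and 28.3 with sanguinarine, 33.3 and 36.4 with cepharanthine, against 30.8 and 28.6 in control, and it passed against control with no alkaloid. Its difference of −0.53 ± 0.15 between sanguinarine and evodiamine (adjusted p = 0.0131) did not pass when any 1 of the 4 libraries was left out.

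Among the arrest genes, CDKN1A rose with all 3 alkaloids. CDKN1A, the p21 inhibitor of cyclin-dependent kinases, was at 209 and 215 RPKM with evodiamine, 237 and 237 with sanguinarine, 129 and 118 with cepharanthine, against 93.0 and 95.7 in control. No library of a treated group fell to the level of a control library, and both sanguinarine libraries were the highest. The change was 1.11 ± 0.10 with evodiamine (adjusted p = 1.9e-07), 1.19 ± 0.10 with sanguinarine (adjusted p = 4.46e-08) and 0.36 ± 0.10 with cepharanthine (adjusted p = 0.0389), the last being lost whichever library was left out (highest adjusted p = 0.359). BTG2, an antiproliferative gene that acts on mRNA turnover, was at 51.6 and 52.7 RPKM with evodiamine, 34.6 and 36.7 with sanguinarine, 17.6 and 17.3 with cepharanthine, against 22.2 and 23.0 in control. The groups did not overlap, and BTG2 was called in opposite directions by the alkaloids, as was POLH. It rose with evodiamine (1.15 ± 0.09, adjusted p = 6.96e-08) and sanguinarine (0.52 ± 0.09, adjusted p = 0.000429) and fell with cepharanthine (−0.40 ± 0.09, adjusted p = 0.0157), and cepharanthine was below evodiamine by −1.56 ± 0.09 (adjusted p = 1.3e-09). Without 1 library of either group, the fall with cepharanthine did not pass (highest adjusted p = 0.184).

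The Polo-like kinase genes and GADD45A each had a pattern of their own. PLK2, whose kinase acts in centriole duplication and the stress response, stood at 98.0 and 100 RPKM with evodiamine, 64.1 and 62.2 with sanguinarine, 51.8 and 54.8 with cepharanthine, against 106 and 107 in control. Sanguinarine and cepharanthine libraries lay far below the others. PLK2 fell with sanguinarine (−0.89 ± 0.09, adjusted p = 8.27e-07) and cepharanthine (−1.03 ± 0.09, adjusted p = 3.74e-07), and its change with evodiamine of −0.16 ± 0.09 did not pass (adjusted p = 0.294). PLK3, a stress-responsive kinase of the same family, was at 12.6 and 11.9 RPKM with evodiamine, 17.2 and 17.6 with sanguinarine, 15.3 and 12.9 with cepharanthine, against 11.8 and 10.6 in control. It rose with sanguinarine (0.50 ± 0.11, adjusted p = 0.00262), although not without the second control library (adjusted p = 0.0703), and its change with evodiamine was 0.08 ± 0.11 (adjusted p = 0.738). GADD45A, a damage-inducible arrest gene, held 83.3 and 88.4 RPKM with evodiamine, 61.8 and 60.2 with sanguinarine, 52.9 and 53.7 with cepharanthine, against 58.2 and 58.6 in control. GADD45A rose with evodiamine (0.50 ± 0.10, adjusted p = 0.00236), but not without the second evodiamine library (adjusted p = 0.0524), and sanguinarine was below evodiamine by −0.57 ± 0.10 (adjusted p = 0.000418).

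**Figure D2:**
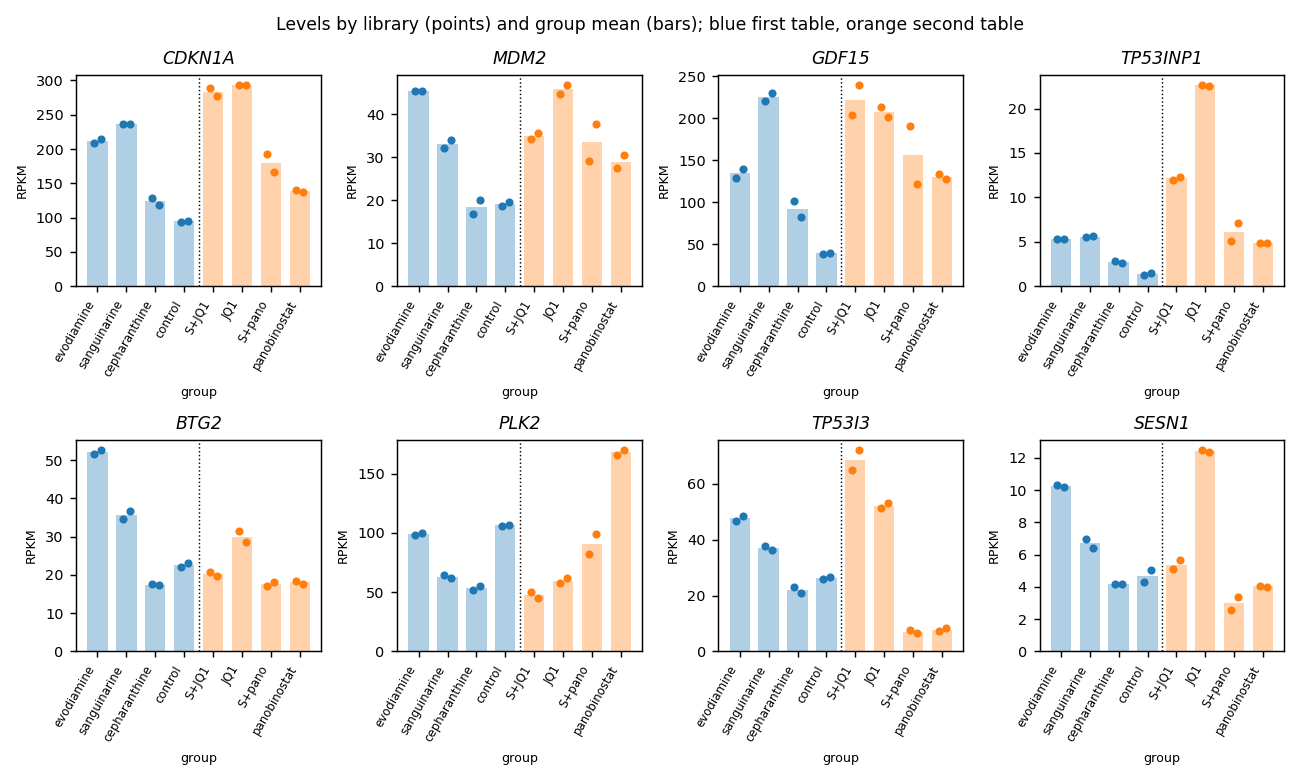
RPKM (vertical axes, linear from 0) of 8 p53 target genes in every library (points), with group means (bars), for the first table (blue) and the second (orange), where S+JQ1 and S+pano are sanguinarine with JQ1 and with panobinostat. CDKN1A is at 93.0 and 95.7 in control and above that in every other library. TP53I3 is at 6.45 to 8.39 in the libraries with panobinostat and at 21 to 72.2 in all others. The tables were deposited apart and only the first holds a control, so bars of different colours are shown together for description only.

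Of the 5 genes grouped here as death receptors, 4 rose with evodiamine, 1 rose with sanguinarine (EDA2R) and none passed with cepharanthine. FAS, TNFRSF10A and TNFRSF10B did not pass with sanguinarine. EDA2R, a receptor for ectodysplasin A2, stood at 10.0 and 9.63 RPKM with evodiamine, 7.35 and 6.77 with sanguinarine, 3.51 and 3.52 with cepharanthine, against 3.87 and 3.84 in control. It rose with evodiamine (1.29 ± 0.12, adjusted p = 7.84e-07) and sanguinarine (0.74 ± 0.12, adjusted p = 0.000243). TNFRSF10D, a TRAIL receptor that lacks a working death domain, had 9.24 and 9.28 RPKM with evodiamine, 5.61 and 5.62 with sanguinarine, 4.19 and 3.72 with cepharanthine, against 3.88 and 3.74 in control. The sanguinarine libraries lay between the evodiamine and control libraries without overlap. TNFRSF10D rose with evodiamine (1.22 ± 0.15, adjusted p = 1.7e-05), and its change with sanguinarine was 0.42 ± 0.15 (adjusted p = 0.0509). FAS, the receptor for FAS ligand, was at 14.7 and 15.2 RPKM with evodiamine, 10.7 and 9.94 with sanguinarine, 7.45 and 9.28 with cepharanthine, against 8.14 and 8.48 in control, and rose with evodiamine (0.79 ± 0.15, adjusted p = 0.00107).

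The TRAIL receptors that carry a death domain moved less. TNFRSF10B (DR5) was at 38.9 and 39.0 RPKM with evodiamine, 32.2 and 32.3 with sanguinarine, 27.0 and 25.4 with cepharanthine, against 25.9 and 25.9 in control. Its level rose with evodiamine (0.53 ± 0.09, adjusted p = 0.000653), and its change with sanguinarine was 0.18 ± 0.09 (adjusted p = 0.183). TNFRSF10A (DR4) stood at 19.9 and 20.2 RPKM with evodiamine, 18.9 and 18.2 with sanguinarine, 18.1 and 17.2 with cepharanthine, against 18.4 and 18.7 in control, and passed with no alkaloid, with changes from −0.13 to 0.05.

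Of the 8 genes of apoptosis and survival, 6 rose with evodiamine, 4 with sanguinarine and 1 with cepharanthine. TP53INP1, a stress protein that promotes apoptosis and autophagy, was at 5.35 and 5.36 RPKM with evodiamine, 5.48 and 5.66 with sanguinarine, 2.78 and 2.61 with cepharanthine, against 1.25 and 1.52 in control. All treated libraries stood above the control libraries, and it rose with evodiamine (1.89 ± 0.13, adjusted p = 5.95e-09), sanguinarine (1.87 ± 0.13, adjusted p = 3.08e-09) and cepharanthine (0.93 ± 0.13, adjusted p = 8.99e-05). Sanguinarine differed from evodiamine by −0.02 (95% interval −0.25 to 0.21, adjusted p = 0.945). RPS27L, a ribosomal protein S27-like gene that acts on p53 stability, held 51.6 and 60.7 RPKM with evodiamine, 50.4 and 49.0 with sanguinarine, 30.7 and 35.3 with cepharanthine, against 30.9 and 31.6 in control. It rose with evodiamine (0.79 ± 0.12, adjusted p = 0.000141) and sanguinarine (0.53 ± 0.12, adjusted p = 0.00279). TRIAP1, an inhibitor of apoptosis, had 44.2 and 43.7 RPKM with evodiamine, 39.7 and 40.4 with sanguinarine, 24.0 and 23.6 with cepharanthine, against 25.3 and 27.5 in control. TRIAP1 rose with evodiamine (0.68 ± 0.14, adjusted p = 0.00328) and sanguinarine (0.47 ± 0.14, adjusted p = 0.0233), but without the first control library neither passed, and the call with sanguinarine was also lost without any other library of its comparison.

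The other members of this role changed by less than 1 log2 unit with every alkaloid. ZMAT3, an RNA-binding zinc finger protein, was at 8.62 and 8.26 RPKM with evodiamine, 7.61 and 8.37 with sanguinarine, 4.66 and 6.05 with cepharanthine, against 5.49 and 5.73 in control. ZMAT3 rose with evodiamine (0.53 ± 0.12, adjusted p = 0.00702) and sanguinarine (0.37 ± 0.12, adjusted p = 0.0345), but the call with evodiamine was lost without either control library or the first evodiamine library (highest adjusted p = 0.0865), and that with sanguinarine whichever library was left out (highest adjusted p = 0.218). AEN, a nuclease that promotes apoptosis, held 41.5 and 41.3 RPKM with evodiamine, 30.4 and 31.8 with sanguinarine, 26.6 and 24.4 with cepharanthine, against 30.8 and 27.9 in control, and rose with evodiamine (0.44 ± 0.10, adjusted p = 0.00813), a call lost without the second control library or either evodiamine library (highest adjusted p = 0.144). SPATA18, which acts in mitochondrial quality control, had 5.75 and 5.63 RPKM with evodiamine, 5.05 and 5.28 with sanguinarine, 3.52 and 3.16 with cepharanthine, against 3.53 and 3.67 in control. It rose with evodiamine (0.60 ± 0.18, adjusted p = 0.0339), a call lost whichever library was left out, and its change with sanguinarine was 0.38 ± 0.18 (adjusted p = 0.14). PHLDA3, which restrains AKT, was at 143 and 153 RPKM with evodiamine, 155 and 153 with sanguinarine, 125 and 110 with cepharanthine, against 125 and 120 in control, while PERP, a membrane protein of desmosomes, was at 87.0 and 87.5 RPKM with evodiamine, 101 and 99.8 with sanguinarine, 86.2 and 93.6 with cepharanthine, against 82.7 and 81.4 in control. Neither PHLDA3 nor PERP passed against control with any alkaloid.

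All 4 DNA repair genes rose with evodiamine. RRM2B, a p53-induced subunit of ribonucleotide reductase, stood at 24.0 and 24.1 RPKM with evodiamine, 18.7 and 18.4 with sanguinarine, 9.48 and 11.2 with cepharanthine, against 10.3 and 10.2 in control. Its level rose with evodiamine (1.17 ± 0.12, adjusted p = 1.1e-06) and sanguinarine (0.72 ± 0.12, adjusted p = 0.000152). XPC, which recognises lesions for nucleotide excision repair, had 20.5 and 21 RPKM with evodiamine, 18.3 and 20 with sanguinarine, 12.7 and 10.6 with cepharanthine, against 11.8 and 13.1 in control. XPC rose with evodiamine (0.68 ± 0.11, adjusted p = 0.000186) and sanguinarine (0.49 ± 0.10, adjusted p = 0.00213), the second call being lost without the first control library (adjusted p = 0.0609). DDB2, which senses ultraviolet damage and has the perfect pair of half-sites shown above, held 50.5 and 51.0 RPKM with evodiamine, 40.7 and 42.0 with sanguinarine, 35.2 and 33.9 with cepharanthine, against 39.0 and 38.9 in control. Its rise with evodiamine was small (0.33 ± 0.09, adjusted p = 0.0234) and was lost whichever library was left out. POLH, the translesion polymerase eta, was at 7.45 and 7.24 RPKM with evodiamine, 5.32 and 5.79 with sanguinarine, 4.15 and 4.46 with cepharanthine, against 5.48 and 5.62 in control. It rose with evodiamine (0.35 ± 0.10, adjusted p = 0.0333) and fell with cepharanthine (−0.40 ± 0.10, adjusted p = 0.037), and both calls were lost whichever library was left out. The direct difference of cepharanthine from evodiamine was −0.74 ± 0.10 for POLH (adjusted p = 4.64e-05), and it passed in all 4 refits.

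Of the 4 genes of metabolism and redox balance, 3 rose with evodiamine and 2 with sanguinarine. SESN1, a sestrin that restrains mTORC1, stood at 10.3 and 10.2 RPKM with evodiamine, 7.0 and 6.41 with sanguinarine, 4.19 and 4.17 with cepharanthine, against 4.30 and 5.08 in control. SESN1 rose with evodiamine (1.06 ± 0.12, adjusted p = 5.64e-06), and its rise with sanguinarine (0.38 ± 0.12, adjusted p = 0.0284) was lost without the first control library or either sanguinarine library (highest adjusted p = 0.316). TP53I3, a quinone oxidoreductase-like gene, held 46.9 and 48.6 RPKM with evodiamine, 37.7 and 36.5 with sanguinarine, 23.2 and 21 with cepharanthine, against 26.0 and 26.8 in control. TP53I3 rose with evodiamine (0.80 ± 0.11, adjusted p = 5.79e-05), and its rise with sanguinarine (0.36 ± 0.11, adjusted p = 0.0252) was lost whichever library was left out. FDXR, the mitochondrial ferredoxin reductase, was at 25.2 and 26.1 RPKM with evodiamine, 22.6 and 24.6 with sanguinarine, 15.5 and 13.2 with cepharanthine, against 18.3 and 18.5 in control. Its rise with evodiamine (0.42 ± 0.12, adjusted p = 0.0258) was likewise lost whichever library was left out. CMBL, a hydrolase gene, was at 24.4 and 24.3 RPKM with evodiamine, 19.3 and 20.5 with sanguinarine, 16.3 and 16.5 with cepharanthine, against 19.2 and 19.4 in control, and passed with no alkaloid against control.

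GDF15 had the largest change of the 31 members with sanguinarine and with cepharanthine. This secreted cytokine of the TGF-β family stood at 129 and 140 RPKM with evodiamine, 220 and 230 with sanguinarine, 101 and 82.3 with cepharanthine, against 38.7 and 39.9 in control. The groups did not overlap, and GDF15 rose with evodiamine (1.72 ± 0.16, adjusted p = 5.13e-07), sanguinarine (2.38 ± 0.17, adjusted p = 4.39e-09) and cepharanthine (1.19 ± 0.16, adjusted p = 7.64e-05). It was higher with sanguinarine than with evodiamine (0.66 ± 0.16, adjusted p = 0.00483), which without the first evodiamine library did not pass (adjusted p = 0.059). RAP2B, a small GTPase of the RAS family, was at 19.9 and 20.3 RPKM with evodiamine, 17.8 and 18.6 with sanguinarine, 19.0 and 17.4 with cepharanthine, against 16.6 and 16.9 in control, and passed with none of them.

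JQ1 and panobinostat gave very different levels of p53 targets. With JQ1, 26 members were higher than with panobinostat, 3 were lower (PLK2, PERP and RAP2B) and 2 did not pass (PHLDA3 and TRIAP1), against 55.9% of all genes called, 26.8% higher and 29.1% lower. The median of the members was 0.90, and that of all genes −0.03. Read by title, the same comparison, then of the combinations, had 25 members higher and 2 lower, against 25.4% and 27.5% of all genes. Without a control in this table, a rise with JQ1 and a fall with panobinostat cannot be told apart.

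The largest of these differences lay among redox, apoptosis and arrest genes. TP53I3 held 51.3 and 53.2 RPKM with JQ1 and 7.23 and 8.39 with panobinostat (2.91 ± 0.12, adjusted p = 2.17e-13). TP53INP1 was at 22.7 and 22.5 RPKM with JQ1 and 4.83 and 4.90 with panobinostat (2.38 ± 0.12, adjusted p = 4.04e-12). PLK3 stood at 25.2 and 25.0 RPKM with JQ1 and 8.04 and 7.41 with panobinostat (1.87 ± 0.11, adjusted p = 5.33e-11). In each of these genes both JQ1 libraries lay well above both panobinostat libraries. SESN1 followed with 12.5 and 12.4 RPKM with JQ1 and 4.04 and 4.02 with panobinostat (1.79 ± 0.12, adjusted p = 2.58e-10). CDKN1A was at 294 and 293 RPKM with JQ1 and 140 and 137 with panobinostat (1.25 ± 0.10, adjusted p = 1.51e-09). PLK2 ran the other way, with 57.3 and 61.5 RPKM with JQ1 and 166 and 170 with panobinostat (−1.33 ± 0.09, adjusted p = 2.68e-10). All 5 genes grouped as death receptors, all 4 repair genes, all 4 genes of metabolism and redox balance and all 3 feedback genes were higher with JQ1.

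Adding sanguinarine to JQ1 lowered more p53 targets than it raised. Of the 31 members, 6 were higher with sanguinarine and JQ1 than with JQ1, 12 were lower and 13 did not pass, against 16.2% of all genes higher and 13.8% lower, with medians of −0.13 for the members and 0.02 for all genes. All 3 feedback genes fell. Of the 5 genes grouped as death receptors, 4 rose (TNFRSF10A, TNFRSF10B, EDA2R and TNFRSF10D) and FAS fell. Adding sanguinarine to panobinostat raised 6, lowered 6 and left 19 not passing, against 11.5% and 11.4% of all genes, with medians of 0.09 and 0.06. That balance depended on scaling, since 10 were higher and 6 lower when libraries were scaled to their totals alone, with 23.5% of all genes called against 22.9%. It also depended on single libraries. The number of members passing and the share of all genes called both rose without the second library of sanguinarine with panobinostat. Both fell without the second panobinostat library. Both comparisons lowered FAS, SESN1, PLK2 and PERP and both raised AEN, TNFRSF10B and TNFRSF10A.

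The feedback genes fell on JQ1 and did not pass on panobinostat. MDM2 stood at 34.2 and 35.6 RPKM with sanguinarine and JQ1, 44.8 and 46.9 with JQ1, 29.2 and 37.8 with sanguinarine and panobinostat, and 27.5 and 30.4 with panobinostat. It fell by 0.47 ± 0.10 on JQ1 (adjusted p = 0.0014), and the libraries overlapped on panobinostat (0.09 ± 0.10, adjusted p = 0.572). PPM1D held 6.88 and 5.95 RPKM with sanguinarine and JQ1, 9.30 and 8.99 with JQ1, 4.69 and 5.35 with sanguinarine and panobinostat, and 4.06 and 3.86 with panobinostat, and fell on JQ1 (−0.59 ± 0.11, adjusted p = 0.000334). CCNG1 was at 33.2 and 30 RPKM with sanguinarine and JQ1, 43.4 and 43.5 with JQ1, 16.6 and 27.6 with sanguinarine and panobinostat, and 23.0 and 28.6 with panobinostat. Its fall on JQ1 (−0.54 ± 0.15, adjusted p = 0.00792) was lost without the first JQ1 library or the second of the combination (highest adjusted p = 0.0939).

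Among the arrest genes, the rise of CDKN1A seen with sanguinarine alone was not seen on JQ1. CDKN1A was at 289 and 278 RPKM with sanguinarine and JQ1, 294 and 293 with JQ1, 193 and 166 with sanguinarine and panobinostat, and 140 and 137 with panobinostat. Its change was −0.13 (95% interval −0.32 to 0.06) on JQ1 (adjusted p = 0.338) and 0.26 (95% interval 0.08 to 0.45) on panobinostat (adjusted p = 0.0537). BTG2 held 20.7 and 19.6 RPKM with sanguinarine and JQ1, 31.5 and 28.5 with JQ1, 17.0 and 18.1 with sanguinarine and panobinostat, and 18.4 and 17.7 with panobinostat, and fell on JQ1 (−0.66 ± 0.09, adjusted p = 2.4e-05). PLK2 stood at 50.2 and 45.0 RPKM with sanguinarine and JQ1, 57.3 and 61.5 with JQ1, 82.5 and 99.3 with sanguinarine and panobinostat, and 166 and 170 with panobinostat. PLK2 fell on panobinostat (−1.0 ± 0.09, adjusted p = 4.31e-07) and on JQ1 (−0.40 ± 0.09, adjusted p = 0.00234), the fall on JQ1 being lost without the second library of the combination (adjusted p = 0.0507). PLK3 was at 21.8 and 21.7 RPKM with sanguinarine and JQ1, 25.2 and 25.0 with JQ1, 10.5 and 9.82 with sanguinarine and panobinostat, and 8.04 and 7.41 with panobinostat. GADD45A held 123 and 102 RPKM with sanguinarine and JQ1, 115 and 119 with JQ1, 65.2 and 72.9 with sanguinarine and panobinostat, and 66.2 and 75.1 with panobinostat. Neither PLK3 nor GADD45A passed with either partner.

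The genes grouped as death receptors divided by gene rather than by partner drug. FAS was at 2.92 and 3.01 RPKM with sanguinarine and JQ1, 5.04 and 5.01 with JQ1, 1.12 and 1.90 with sanguinarine and panobinostat, and 2.01 and 2.31 with panobinostat. It fell on JQ1 (−0.84 ± 0.15, adjusted p = 0.000287) and on panobinostat (−0.64 ± 0.16, adjusted p = 0.00798), the second call being lost without the second panobinostat library or the first of the combination (highest adjusted p = 0.093). TNFRSF10B held 31.5 and 28.9 RPKM with sanguinarine and JQ1, 22.0 and 20.8 with JQ1, 22.1 and 21.3 with sanguinarine and panobinostat, and 16.3 and 15.5 with panobinostat. TNFRSF10B rose on JQ1 (0.42 ± 0.09, adjusted p = 0.00195) and on panobinostat (0.34 ± 0.09, adjusted p = 0.0133), calls that were lost without the second JQ1 library (adjusted p = 0.0587) and without either panobinostat library (highest adjusted p = 0.196). TNFRSF10A stood at 14.3 and 12.4 RPKM with sanguinarine and JQ1, 8.96 and 8.63 with JQ1, 5.06 and 5.05 with sanguinarine and panobinostat, and 3.64 and 3.21 with panobinostat. It rose on JQ1 (0.52 ± 0.12, adjusted p = 0.00171) and on panobinostat (0.45 ± 0.13, adjusted p = 0.0142), the second being lost without the second panobinostat library (adjusted p = 0.237).

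EDA2R and TNFRSF10D rose on JQ1. EDA2R held 4.47 and 4.20 RPKM with sanguinarine and JQ1, 2.31 and 2.63 with JQ1, 1.55 and 1.99 with sanguinarine and panobinostat, and 1.33 and 1.20 with panobinostat (0.73 ± 0.13 on JQ1, adjusted p = 0.000208; 0.37 ± 0.14 on panobinostat, adjusted p = 0.0626). TNFRSF10D was at 7.64 and 5.73 RPKM with sanguinarine and JQ1, 4.35 and 4.09 with JQ1, 4.22 and 3.36 with sanguinarine and panobinostat, and 2.81 and 3.03 with panobinostat. Its rise on JQ1 (0.58 ± 0.15, adjusted p = 0.00582) was lost without the second JQ1 library or the first of the combination (highest adjusted p = 0.169).

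Of the genes of apoptosis and survival, AEN rose with both partners and PERP fell with both. AEN was at 19.0 and 15.8 RPKM with sanguinarine and JQ1, 9.32 and 9.11 with JQ1, 10.2 and 10.5 with sanguinarine and panobinostat, and 5.77 and 6.04 with panobinostat, and rose on JQ1 (0.84 ± 0.11, adjusted p = 6.15e-06) and on panobinostat (0.70 ± 0.11, adjusted p = 0.000167). PERP stood at 98.6 and 96.1 RPKM with sanguinarine and JQ1, 120 and 124 with JQ1, 117 and 145 with sanguinarine and panobinostat, and 181 and 197 with panobinostat, and fell on JQ1 (−0.41 ± 0.09, adjusted p = 0.00172) and on panobinostat (−0.65 ± 0.09, adjusted p = 4.99e-05). TP53INP1 held 12 and 12.3 RPKM with sanguinarine and JQ1, 22.7 and 22.5 with JQ1, 5.12 and 7.06 with sanguinarine and panobinostat, and 4.83 and 4.90 with panobinostat. This gene, which had more than 1 log2 unit of rise with sanguinarine alone, fell by 0.97 ± 0.12 on JQ1 (adjusted p = 2.73e-06) and did not pass on panobinostat (0.20 ± 0.12, adjusted p = 0.233). PHLDA3 was at 81.2 and 82.6 RPKM with sanguinarine and JQ1, 83.6 and 84.4 with JQ1, 59.5 and 61.4 with sanguinarine and panobinostat, and 90.0 and 98.2 with panobinostat, and fell on panobinostat (−0.75 ± 0.09, adjusted p = 1.22e-05). ZMAT3, TRIAP1, RPS27L and SPATA18 passed with neither partner, with changes from −0.21 to 0.23.

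The repair genes did not move as a group. XPC held 30.2 and 30.3 RPKM with sanguinarine and JQ1, 28.8 and 29.3 with JQ1, 17.2 and 16.9 with sanguinarine and panobinostat, and 12.6 and 11.4 with panobinostat, and rose on panobinostat (0.39 ± 0.11, adjusted p = 0.0108), although not without the second panobinostat library (adjusted p = 0.207). DDB2 was at 44.3 and 40.9 RPKM with sanguinarine and JQ1, 39.8 and 39.3 with JQ1, 33.3 and 33.3 with sanguinarine and panobinostat, and 22.2 and 23.4 with panobinostat, and rose on panobinostat (0.43 ± 0.09, adjusted p = 0.0021). POLH stood at 6.04 and 5.60 RPKM with sanguinarine and JQ1, 9.42 and 9.74 with JQ1, 3.89 and 4.35 with sanguinarine and panobinostat, and 3.21 and 3.94 with panobinostat. It fell on JQ1 (−0.80 ± 0.10, adjusted p = 7.65e-06) and overlapped on panobinostat. RRM2B held 30.7 and 30.9 RPKM with sanguinarine and JQ1, 32.9 and 32.2 with JQ1, 14.8 and 21.4 with sanguinarine and panobinostat, and 17.1 and 17.5 with panobinostat, and passed with neither (−0.16 ± 0.11 and −0.06 ± 0.11).

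The largest fall on JQ1 was in SESN1. SESN1 was at 5.14 and 5.64 RPKM with sanguinarine and JQ1, 12.5 and 12.4 with JQ1, 2.59 and 3.38 with sanguinarine and panobinostat, and 4.04 and 4.02 with panobinostat, and fell on JQ1 (−1.29 ± 0.12, adjusted p = 1.08e-07) and on panobinostat (−0.55 ± 0.12, adjusted p = 0.00329). FDXR stood at 26.4 and 27.0 RPKM with sanguinarine and JQ1, 50.8 and 49.6 with JQ1, 41.1 and 32.4 with sanguinarine and panobinostat, and 23.9 and 24.5 with panobinostat. It moved in opposite directions, falling on JQ1 (−0.99 ± 0.12, adjusted p = 3.23e-06) and rising on panobinostat (0.50 ± 0.12, adjusted p = 0.00521), and the rise was lost without either panobinostat library or the first of the combination (highest adjusted p = 0.0603). TP53I3 held 64.9 and 72.2 RPKM with sanguinarine and JQ1, 51.3 and 53.2 with JQ1, 7.73 and 6.45 with sanguinarine and panobinostat, and 7.23 and 8.39 with panobinostat, and its rise on JQ1 (0.31 ± 0.11, adjusted p = 0.0361) was lost whichever library was left out. CMBL was at 8.47 and 10.3 RPKM with sanguinarine and JQ1, 11.2 and 11.8 with JQ1, 5.84 and 8.95 with sanguinarine and panobinostat, and 7.17 and 7.65 with panobinostat. Its fall on JQ1 (−0.37 ± 0.13, adjusted p = 0.0347) was lost without any library but the second of the combination (highest adjusted p = 0.285).

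GDF15 passed with neither partner. It stood at 204 and 240 RPKM with sanguinarine and JQ1, 213 and 202 with JQ1, 191 and 122 with sanguinarine and panobinostat, and 133 and 128 with panobinostat. The libraries overlapped in both comparisons, and the change was 0.02 on JQ1 (95% interval −0.29 to 0.32, adjusted p = 0.954), and 0.16 on panobinostat (95% interval −0.15 to 0.46, adjusted p = 0.52). RAP2B was at 15.1 and 15.3 RPKM with sanguinarine and JQ1, 13.6 and 13.2 with JQ1, 15.1 and 16.7 with sanguinarine and panobinostat, and 18.5 and 19.0 with panobinostat, and fell on panobinostat (−0.36 ± 0.09, adjusted p = 0.00539).

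Whether sanguinarine's change differed with the partner present was tested as an interaction, the change on the partner drug minus the change with sanguinarine alone against control. Each change was taken within its own table, although the comparison still spans both tables, and a difference between tables that is not additive on the log2 scale cannot be told apart from the drug. With JQ1 the interaction was lower in 16 members, higher in 3 and not passing in 12, against 8.25% of all genes lower and 9.83% higher, and the medians were −0.51 for the members and −0.01 for all genes. With panobinostat it was lower in 13, higher in 3 and not passing in 15, against 8.65% and 7.91%, with medians of −0.34 and −0.02. The panobinostat count of 16 and the share of all genes called both fell without the first control library or the second panobinostat library. Both rose without the second library of the combination. Read by title instead, which exchanges the drug alone and the combination, the interaction with JQ1 was lower in 12 members and higher in 7, against 17.2% and 14.4% of all genes, with medians of −0.22 and −0.06. With panobinostat it was then lower in 15 and higher in 4, against 14.9% and 13.3%, with medians of −0.38 and −0.10.

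The most negative interactions were those of TP53INP1 and GDF15, the genes that sanguinarine alone raised most, and the change with sanguinarine alone is itself a term of the interaction. TP53INP1 differed by −2.84 ± 0.17 with JQ1 (adjusted p = 2.57e-09) and −1.67 ± 0.17 with panobinostat (adjusted p = 2.75e-06). GDF15 differed by −2.36 ± 0.22 with JQ1 (adjusted p = 7.4e-07) and −2.23 ± 0.22 with panobinostat (adjusted p = 2.14e-06). CDKN1A differed by −1.32 ± 0.14 with JQ1 (adjusted p = 1.75e-06) and −0.93 ± 0.14 with panobinostat (adjusted p = 0.000121). With JQ1 alone and with panobinostat alone, TP53INP1, GDF15 and CDKN1A stood above their control levels of the first table, while AEN, FAS and PHLDA3 stood below theirs. TP53INP1 was at 1.25 and 1.52 RPKM in control, 22.7 and 22.5 with JQ1 and 4.83 and 4.90 with panobinostat. SESN1 was above its control level with JQ1 and below it with panobinostat. Other members also stood above or below theirs and are not listed. This comparison across tables is a description only, and the part of these levels in the interactions was not tested. SESN1 differed by −1.67 ± 0.17 with JQ1 (adjusted p = 1.64e-06), and PHLDA3 by −0.95 ± 0.13 with panobinostat (adjusted p = 5.37e-05). AEN ran the other way, at 0.89 ± 0.15 with JQ1 (adjusted p = 0.000288) and 0.75 ± 0.15 with panobinostat (adjusted p = 0.00193). Read by title, GDF15 stood at −2.40 ± 0.22 with JQ1 and −2.54 ± 0.23 with panobinostat, CDKN1A at −1.07 ± 0.14 and −1.46 ± 0.14, and TP53INP1 at −0.90 ± 0.17 and −2.07 ± 0.17, all passing. SESN1 turned to 0.91 ± 0.17 with JQ1, PHLDA3 to 0.56 ± 0.13 with panobinostat, and AEN to −0.78 ± 0.15 with JQ1 and −0.64 ± 0.15 with panobinostat, so the direction of these 3 rests on the labels. By label, of the 14 members raised by sanguinarine alone, 4 fell when it was added to JQ1 (MDM2, BTG2, TP53INP1 and SESN1). Of all genes, 13.8% were lower there. On panobinostat 1 of the 14 fell (SESN1), where 11.4% of all genes were lower. The share among all genes raised by sanguinarine alone was not computed. The rise of SESN1 with sanguinarine alone was 0.26 to 0.50 with 1 library left out and was not called in every refit.

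**Figure D3:**
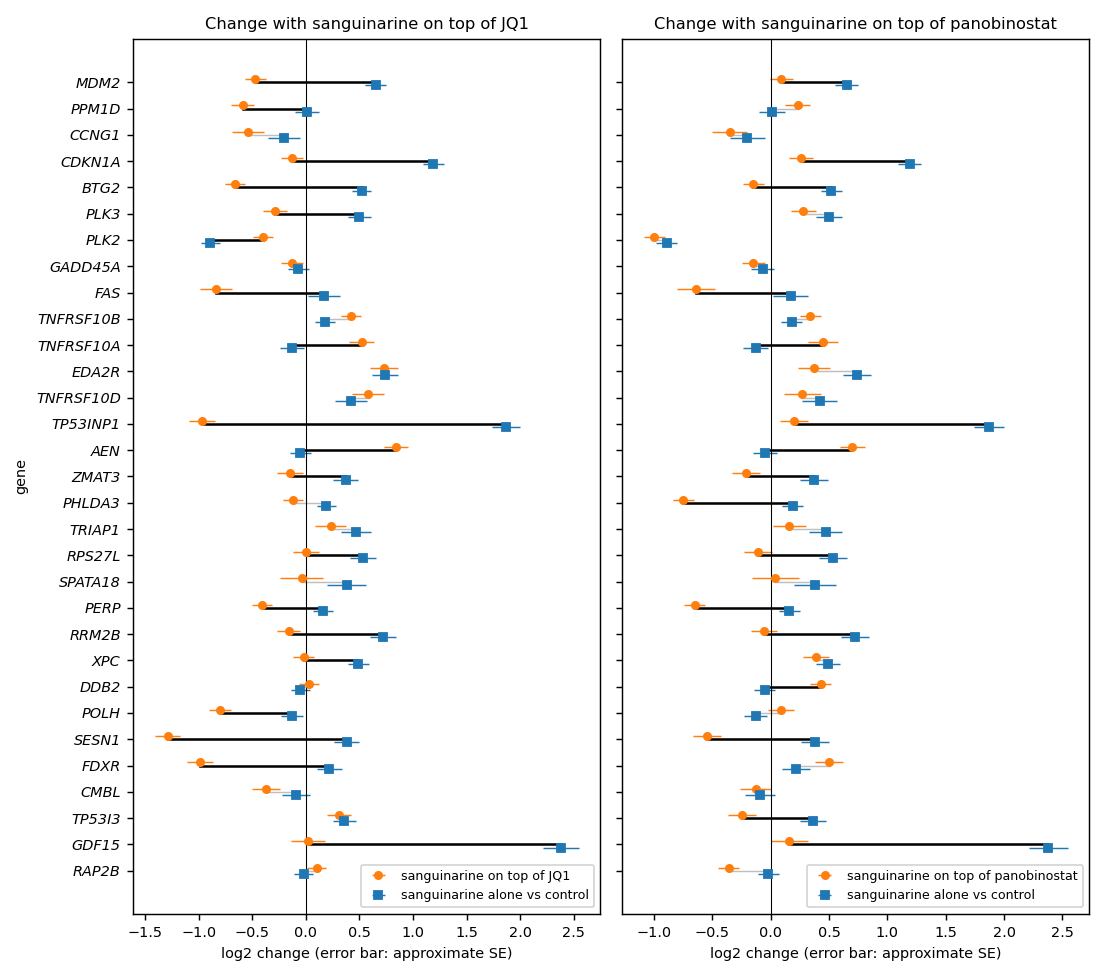
Log2 change (horizontal axis) of each p53 target gene (vertical axis) with sanguinarine added to JQ1 (left panel, orange circles) or to panobinostat (right panel, orange circles) and with sanguinarine alone against control (blue squares), with approximate standard errors; a black line joins the pair where the interaction passed at an adjusted p under 0.05 and a grey line where it did not. The longest lines belong to TP53INP1 (1.87 alone and −0.97 on JQ1) and GDF15 (2.38 alone and 0.02 on JQ1).

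Other genes of the pathway were taken from lists chosen for it, also with earlier results of these data known. Of 27 further p53 targets, 13 rose and 14 did not pass with evodiamine, 11 rose and 5 fell with sanguinarine, and 2 fell and 25 did not pass with cepharanthine, with medians of 0.35, 0.29 and −0.07. Over all genes, 5.3% were higher and 6.13% lower with evodiamine, 11.7% and 10.3% with sanguinarine, and 2.6% and 0.961% with cepharanthine. BBC3, which codes for the apoptosis activator PUMA, rose with evodiamine (1.72 ± 0.22, adjusted p = 2.41e-05) and sanguinarine (1.33 ± 0.22, adjusted p = 0.000193). PMAIP1, which codes for NOXA, rose with evodiamine (1.01 ± 0.15, adjusted p = 0.000116) and sanguinarine (1.38 ± 0.15, adjusted p = 1.75e-06). With cepharanthine, KITLG, the gene of KIT ligand, fell by 0.70 ± 0.14 (adjusted p = 0.00357). When sanguinarine was added to JQ1, 6 of the 27 rose and 8 fell, against 16.2% of all genes higher and 13.8% lower. On panobinostat 8 rose and 4 fell, against 11.5% and 11.4% of all genes. With JQ1 the interaction was lower in 7 of this list and not passing in 20, against 8.25% of all genes lower and 9.83% higher. With panobinostat it was lower in 3 and higher in 2, against 8.65% and 7.91%, which is near the background.

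The regulators of p53 were called with the alkaloids about as often as genes in general. Of 17 listed regulators, 15 were tested, and 1 rose and 3 fell with sanguinarine, 2 fell and 13 did not pass with evodiamine, and all 15 did not pass with cepharanthine. Of all genes, 22% were called with sanguinarine, 11.4% with evodiamine and 3.56% with cepharanthine. With sanguinarine, TP63, a p53 family member, rose (0.54 ± 0.10, adjusted p = 0.000782), and the checkpoint kinase genes CHEK2 (−0.61 ± 0.18, adjusted p = 0.0165) and CHEK1 (−0.54 ± 0.14, adjusted p = 0.00757) fell. Between JQ1 and panobinostat, 5 of the 15 were higher with JQ1 and 4 lower (from −2.75 to 2.12), against 26.8% and 29.1% of all genes. When sanguinarine was added to JQ1, 2 rose and 1 fell, against 16.2% and 13.8% of all genes. HIPK2, a kinase that phosphorylates p53, was lower with JQ1 than with panobinostat (−2.75 ± 0.14, adjusted p = 2.4e-12). It rose when sanguinarine was added to JQ1 (1.79 ± 0.13, adjusted p = 6.34e-09).

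Cell cycle genes that the p21 and DREAM pathway represses fell with sanguinarine and divided with evodiamine. All 15 fell with sanguinarine (median −0.67), against 10.3% of all genes lower and a median of 0.01. Among them were MYBL2 (−1.03 ± 0.11, adjusted p = 2.06e-06) and PLK1 (−0.99 ± 0.09, adjusted p = 2.04e-07). With evodiamine, 4 rose, 4 fell and 7 did not pass (median 0.00), against 5.3% of all genes higher and 6.13% lower. CDK1, the mitotic kinase, fell most (−2.21 ± 0.16, adjusted p = 2.1e-08). CDKN1A, the p21 gene itself, was 0.08 apart (95% interval −0.11 to 0.27, adjusted p = 0.608) with sanguinarine and evodiamine. With cepharanthine 2 fell and 13 did not pass, against 0.961% of all genes lower. When sanguinarine was added, 8 of the 15 fell on JQ1 and 11 on panobinostat, and the others did not pass. Of all genes, 13.8% were lower on JQ1 and 11.4% on panobinostat.

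The integrated stress response, whose factors ATF4 and CHOP also act on GDF15 and TNFRSF10B, was followed in 9 genes. Of these, 7 rose with sanguinarine, 5 with evodiamine and 4 with cepharanthine, and the others did not pass. Over all genes, 11.7% were higher with sanguinarine, 5.3% with evodiamine and 2.6% with cepharanthine. NUPR1, a stress-induced chromatin protein, rose by 2.78 ± 0.18 with sanguinarine (adjusted p = 2.19e-09), and ATF3, a stress-induced transcription factor, by 2.48 ± 0.15 with evodiamine (adjusted p = 1.45e-09). All 9 rose when sanguinarine was added to JQ1 (median 2.23) and all 9 when it was added to panobinostat (median 1.41), where the medians of the p53 targets were −0.13 and 0.09. Over all genes, 16.2% and 11.5% were higher, with medians of 0.02 and 0.06. The part of this response in the changes of GDF15, CDKN1A and TNFRSF10B was not tested.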

How the data were processed

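Poly(A) RNA of 16 NCI-H1688 libraries was sequenced, and groups follow the treatment labels. The authors' deposited counts are whole reads per gene, not normalized, and the authors' deposited RPKM are those counts scaled to gene length and library total, per the file headers. RPKM recomputed here differed by at most a relative 2.0e-13. Mapping with STAR 2.5.1 to GRCh38 is stated in the submitters' processing notes, which also name DESeq2, and no source used here names the counting tool. The gene positions in the tables overlapped GENCODE 44 for 3 of 31 members, so they are not printed.

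Counts of all 16 libraries entered a single edgeR 4.0.16 quasi-likelihood fit (R 4.3.3) with TMM scaling, filterByExpr and 1 term for each group, tested on simulated counts. Every adjusted p is edgeR's, with Benjamini-Hochberg adjustment over 22263 genes, or that of a refit where a library is left out. The error (±) was taken as |log2 change| over the root of F, and intervals are approximate 95% intervals. The spread is pooled over the 8 groups, so intervals are not specific to the groups compared. They may be too narrow for sanguinarine with panobinostat and too wide for groups with closer duplicates. Without both libraries of that combination, 19 members and 32.5% of all genes were called with sanguinarine against control, against 15 and 22%. With 2 libraries per group, p-values set a difference between groups against the spread between duplicates, pooled over the groups and in part shared across genes.

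All 31 members are named, CDKN1A, MDM2 and GDF15 in any case, and of each list at most the 3 called genes with the largest change per comparison. COP1 was not matched by symbol and CDKN2A was too low to test. Of the chosen lists, 1 regulator and 1 marker are not reported here. The members and lists were chosen with earlier results of these data known. Alternatives were DESeq2 1.42.0 size factors and Wald test, no filter on low counts, only the 8 libraries of a table, a replicate block, and leaving out each library, and, chosen after seeing the data, library totals, leaving out both libraries of sanguinarine with panobinostat, and reading the second table by title. Promoter windows are from RefSeq (GRCh38.p14).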

Additional observations from a re-analysis of the deposited data

Results flagged for a closer look

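Groups of the second table follow the treatment labels here. Read by title, 9 of the 19 members called with JQ1 and 7 of the 16 called with panobinostat turned their sign. Not all of these passed by title, and the share of all genes that turned was not computed. The change with sanguinarine on JQ1, minus that with sanguinarine alone, differed between the presence and absence of the partner at an edgeR adjusted p under 0.05 in 19 of the 31 members. Of these, 16 were lower on JQ1 than alone. The log2 differences were TP53INP1 at −2.84, GDF15 at −2.36, SESN1 at −1.67, CDKN1A at −1.32, FDXR at −1.22, BTG2 at −1.18, MDM2 at −1.13 and FAS at −1.02. They were RRM2B at −0.88, PLK3 at −0.79, POLH at −0.66, PPM1D at −0.61, PERP at −0.56, RPS27L at −0.54, ZMAT3 at −0.53 and XPC at −0.51 in the remaining members that were lower. It was higher on JQ1 in 3 members, with PLK2 at 0.49, TNFRSF10A at 0.66 and AEN at 0.89. With 1 library left out, TNFRSF10A, PLK2, PPM1D, XPC, RPS27L and ZMAT3 did not pass in at least 1 refit (highest adjusted p from 0.0502 to 0.154 in edgeR).

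The change with sanguinarine on panobinostat, minus that with sanguinarine alone, differed likewise at an edgeR adjusted p under 0.05 in 16 of the 31 members. Of these, 13 were lower on panobinostat than alone. These differences were GDF15 at −2.23, TP53INP1 at −1.67, PHLDA3 at −0.95, CDKN1A at −0.93, SESN1 at −0.93 and PERP at −0.81. They were FAS at −0.81, RRM2B at −0.78, BTG2 at −0.68, RPS27L at −0.64, TP53I3 at −0.60, ZMAT3 at −0.59 and MDM2 at −0.56 in the remaining members that were lower. It was higher on panobinostat in 3 members, with DDB2 at 0.48, TNFRSF10A at 0.58 and AEN at 0.75. With 1 library left out, MDM2, FAS, TNFRSF10A, ZMAT3, DDB2, RPS27L and TP53I3 did not pass in at least 1 refit (highest adjusted p from 0.0561 to 0.159 in edgeR).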

How the results depend on the processing

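No called change of a member turned its direction under the alternatives run here, apart from reading the second table by title. The count of members called with cepharanthine against control (6) was 13 when only the first table was fitted, 10 without both libraries of sanguinarine with panobinostat, and 3 to 3 with 1 library left out. That of sanguinarine against cepharanthine (15) was 26 in the first table alone. With 1 library left out, the counts ranged from 10 to 15 for sanguinarine against evodiamine (19), from 7 to 20 for sanguinarine with panobinostat against panobinostat (12), and from 9 to 22 for its interaction (16). A group reduced to 1 library is assumed to vary like the others. At the ends of these ranges the share of all genes called moved in the same direction as the count. The cause of these moves was not tested. The remaining counts stayed within 1.5 times under every alternative run.

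Whether the replicate numbers of the second table pair its libraries was not settled. The correlations of their deviations ran from −0.06 to 0.27 over 15408 genes, highest between panobinostat and its combination with sanguinarine. With the replicate block, 28 members passed for JQ1 against panobinostat, 16 for sanguinarine with JQ1 and 9 for sanguinarine with panobinostat, against 28, 16 and 8 in the same libraries without it. The shares of all genes called were 54.6%, 25.6% and 18% with the block, against 53.8%, 23.6% and 15.1%. No paired analysis was possible because numbers in the first table come from accession order, for its comparisons and for the interactions. The lowest count of a member in a library was 166 reads, for SPATA18, whose calls were lost in some refits, and whether depth limited them was not tested.

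Reading the second table by title, chosen after seeing the data, exchanges each drug alone with its combination. For JQ1 against panobinostat FDXR was then −0.27 and RAP2B 0.14, neither of which passed, and SPATA18 (0.44) lost its call. The interaction with JQ1 turned to 0.13 for BTG2, 0.67 for FAS, 0.91 for SESN1, 0.93 for POLH, 0.77 for FDXR, 0.58 for PPM1D, 0.74 for CCNG1 and 0.25 for PERP, and to −0.78 for AEN, −0.59 for TNFRSF10B, −0.39 for TNFRSF10A and −1.01 for TNFRSF10D. That with panobinostat turned to 0.47 for FAS, 0.17 for SESN1, 1.89 for PLK2, 0.56 for PHLDA3, 0.49 for PERP and 0.38 for RAP2B, and to −0.64 for AEN, −0.52 for TNFRSF10B, −0.31 for TNFRSF10A, −0.38 for DDB2 and −0.72 for FDXR. Of these turned interactions, BTG2, PERP and TNFRSF10A with JQ1 and FAS, SESN1 and TNFRSF10A with panobinostat did not pass by title. Without turning, MDM2 (−0.18), PLK3 (−0.22) and ZMAT3 (−0.22) lost their call with JQ1. With panobinostat ZMAT3 (−0.16), RPS27L (−0.43) and TP53I3 (−0.11) lost theirs. Called members numbered 27 for JQ1 against panobinostat (29 by label), 19 for the interaction with JQ1 (19) and 19 for that with panobinostat (16). The shares of all genes called were 52.9% (55.9% by label), 31.6% (18.1%) and 28.2% (16.6%), so the interaction counts stood closer to the background by title.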
